A study of Mus musculus with 146 samples.

Results

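The libraries described here hold RNA of whole brain homogenate from mice with or without a floxed interferon gamma receptor allele. They are the 4 ko/fl and 4 ko/wt input libraries, chosen by label, and they make up 8 of the 146 libraries of the series. Each was read over the same 204 genes. Both groups were F1 mice of C57BL/6 * SJL that carried Cx3cr1-CreER, RPL22-HA and 1 Ifngr ko allele; the second Ifngr allele was floxed in ko/fl and wild type in ko/wt. Both groups had EAE of the relapsing-remitting type (experimental autoimmune encephalomyelitis, in which immunized mice develop a demyelinating disease used to study multiple sclerosis), with no stage named. Both received 5 mg tamoxifen by gavage 4 times at 4 to 6 weeks of age. Cre under Cx3cr1 control acts in microglia and in other Cx3cr1-expressing macrophages and blood monocytes, and tamoxifen activates it. The recombined cells carry an HA tag on the ribosomal protein RPL22, so anti-HA precipitation recovers their ribosome-bound mRNA, and precipitation with an isotype IgG gives the background. An input library is an aliquot of cleared homogenate taken before either antibody was added, so it mixes RNA of all brain cells although its label gives microglia as the cell type. The labels do not say whether input, anti-HA and IgG libraries with 1 number came from 1 mouse, nor that replicates are separate mice, so p-values measure the spread between these libraries only.

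Interferon gamma, made mainly by T cells and natural killer cells, binds a receptor of the chains IFNGR1 and IFNGR2. Signalling from the receptor acts through GAS elements in target promoters and induces, among others, IRF1, which with related factors binds ISRE elements. Known targets include guanylate-binding proteins and immunity-related GTPases, the MHC class I and class II pathways, CXCL9, CXCL10 and CXCL11, and the feedback inhibitor SOCS1. Microglia respond to it in EAE, and so can astrocytes, endothelium and infiltrating leukocytes, all of which contribute RNA to a whole brain homogenate.

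The question asked of the inputs was whether the genotype difference of the tagged cells could be seen in whole brain. The 204 genes are those listed with an FDR below 0.05 between the anti-HA genotypes in the authors' deposited table, where the highest FDR is 0.0488. Anti-HA differences are therefore given as a description of how the genes were chosen. The inputs did not enter that choice.

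Of the 204 genes, 151 had a promoter entry in RefSeq's table of GRCm38.p6, and 4 are shown to place these genes relative to the factors above: Fcrls, which carries the largest input difference, and 3 interferon gamma targets, lower in ko/fl anti-HA and not called in input, that were picked because their windows hold the letters. Each run is the 250 bases upstream of the listed start, 5′ to 3′ on the gene's strand, with capitals marking the GAS letters TTCNNNGAA or the ISRE core letters GAAANNGAAA, read on both strands. The coordinates are chr3:87263525-87263774 on the minus strand for Fcrls, and on the plus strand chr11:53769764-53770013 for Irf1 (the first of its listed starts), chr3:142620413-142620662 for Gbp2 and chr11:58199306-58199555 for Igtp.
Fcrls: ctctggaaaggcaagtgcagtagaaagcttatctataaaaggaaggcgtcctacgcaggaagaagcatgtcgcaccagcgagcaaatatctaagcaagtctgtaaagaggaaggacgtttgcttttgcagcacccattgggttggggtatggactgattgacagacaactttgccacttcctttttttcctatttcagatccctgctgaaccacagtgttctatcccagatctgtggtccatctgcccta
Irf1: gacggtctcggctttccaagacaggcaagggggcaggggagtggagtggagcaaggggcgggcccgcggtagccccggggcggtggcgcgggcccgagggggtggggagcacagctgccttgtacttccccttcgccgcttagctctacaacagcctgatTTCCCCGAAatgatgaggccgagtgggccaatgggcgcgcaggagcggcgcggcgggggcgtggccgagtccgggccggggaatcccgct
Gbp2: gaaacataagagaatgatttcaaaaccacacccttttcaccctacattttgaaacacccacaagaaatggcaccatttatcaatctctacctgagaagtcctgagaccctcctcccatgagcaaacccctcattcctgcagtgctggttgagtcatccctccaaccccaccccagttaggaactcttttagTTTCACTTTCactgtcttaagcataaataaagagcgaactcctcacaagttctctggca
Igtp: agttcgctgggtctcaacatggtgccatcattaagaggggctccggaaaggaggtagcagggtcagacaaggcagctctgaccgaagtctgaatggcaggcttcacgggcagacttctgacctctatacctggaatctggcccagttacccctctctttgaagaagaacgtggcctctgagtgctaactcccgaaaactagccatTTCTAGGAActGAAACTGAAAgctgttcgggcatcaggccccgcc
The Irf1 window held the GAS letters, the Gbp2 window the ISRE core letters, the Igtp window both, and the Fcrls window neither. Of other genes read, Cxcl10 and the first listed start of Spp1, which was higher in ko/fl anti-HA, held the ISRE core letters, while the windows of Psmb9, Tap1 and Ifngr1 held neither. The GRCm38 gene coordinates differ from the listed starts in places. By them the Fcrls, Gbp2 and Tap1 windows reach into the gene, Fcrls for most of its length, and the Psmb9 window lies inside it. Over the 90 promoters of genes lower in ko/fl anti-HA, 16.7% held the GAS letters and 23.3% the ISRE core letters, against 6.56% and 9.84% of the 61 promoters of genes higher there. Among all 27025 promoters of the same length, 8.13% held the GAS letters and 3.46% the ISRE core letters. A match is a description of the letters and not evidence of binding.

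Whole brain input showed little of the genotype difference. Fcrls, an Fc receptor-like gene used as a marker of microglia in mice, was higher in ko/fl input, and Hcar2, a receptor for hydroxybutyrate and niacin expressed by myeloid cells, was lower. These were the only genes called at an adjusted p below 0.05 (limma, Benjamini-Hochberg over all 204 genes), 2 of 204 or 0.98%, with 1 higher (0.49%) and 1 lower (0.49%). At an unadjusted p below 0.05 there were 13 genes (6.37%), 3 higher (1.47%) and 10 lower (4.9%) in ko/fl. In the anti-HA libraries 199 genes (97.5%) passed the same adjusted threshold, 74 higher (36.3%) and 125 lower (61.3%), a count that the choice of the genes fixes. With quantile scaling the anti-HA split was 76 higher and 80 lower, and the median anti-HA difference over all genes moved from -1.05 to -0.40.

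Over the 204 genes the median log2 difference, ko/fl minus ko/wt on the log2(normalized value + 1) scale, was -0.02 in input. Its median size regardless of sign was 0.16 in input and 1.37 in anti-HA. The standard error of an input difference had a median of 0.24 and ranged from 0.14 to 0.63. An input difference beyond 2-fold was estimated for 6 genes, against 151 in anti-HA. For 139 genes the 95% interval of the input difference lay wholly within 2-fold in either direction, and for 192 it excluded the anti-HA estimate. Of the 146 genes with a mean input value of at least 10, 113 had an interval within 2-fold and 137 an interval that excluded the anti-HA estimate. The genes were chosen on their anti-HA difference, and the error of that estimate is left out here. The counts of excluded estimates are therefore a description. In bulk RNA, fewer cells of a type and less RNA per cell cannot be told apart.

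The input and anti-HA differences had the same sign for 131 of 204 genes (64.2%). The 126 genes lower in ko/fl anti-HA had a median input difference of -0.07 against -1.63 in anti-HA, and 82 of them were also lower in input. The 78 genes higher in ko/fl anti-HA had a median input difference of 0.11 against 1.07 in anti-HA, and 49 of them were also higher in input. Across the genes, Pearson's r between the input and anti-HA differences was 0.387 and Spearman's rho 0.354, as a description of 204 genes that are not independent and whose libraries may share mice. Of the 13 genes at an unadjusted p below 0.05, 11 had the sign of their anti-HA difference; the others were Gbp4 and Rpl39.

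**Figure D1:**
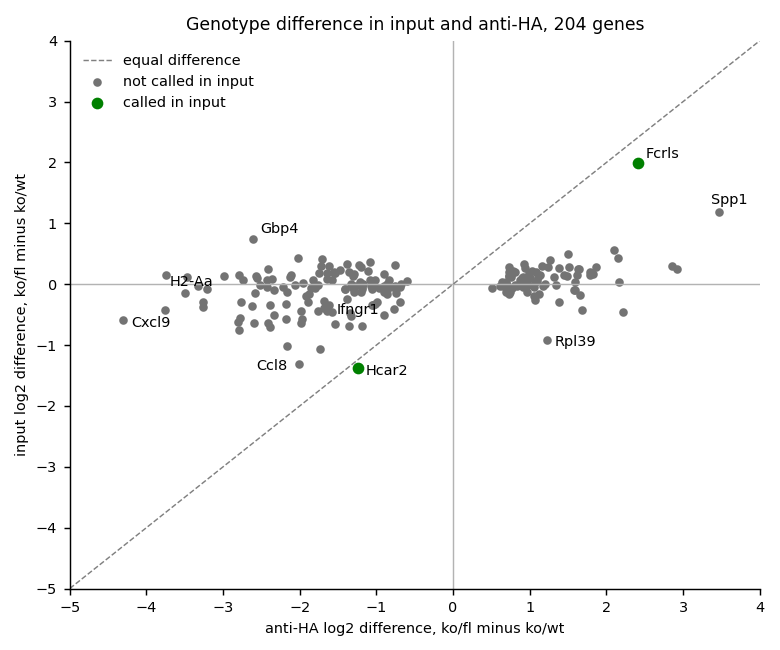
Log2 difference between genotypes (ko/fl minus ko/wt, log2(normalized value + 1)) in anti-HA, x axis, and in input, y axis, for each of 204 genes. Most points lie near 0 on the y axis, with a median size of 0.16 against 1.37 on the x axis, and Fcrls and Hcar2, in green, are the genes called in input.

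Ifngr1, the ligand-binding receptor chain, is the receptor gene in the table; the labels write Ifngr without naming the chain or the deleted part, and Ifngr2 was not analysed here. Its ko/wt input values were 21.1, 15.0, 13.3 and 23.8, and its ko/fl input values 10.1, 10.7, 17.1 and 19.7. The groups overlap, since the higher pair of ko/fl values lies within the ko/wt range. The input log2 difference was -0.34 ± 0.27 (SE, 95% interval -0.95 to 0.27, limma adjusted p = 0.881). In anti-HA the ko/wt values were 300, 305, 299 and 232 and the ko/fl values 81.0, 88.4, 127 and 76.7. Those groups stand apart, with a log2 difference of -1.62. The IgG means were 15.2 in ko/wt and 11.9 in ko/fl, close to the input level. Whether the remaining Ifngr1 values come from transcript outside the deleted part was not tested.

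Fcrls lies at chr3:87250758-87263738 on the minus strand of GRCm38 and is annotated as protein-coding. Its ko/wt input values were 11.4, 4.32, 7.33 and 4.65, and its ko/fl input values 33.9, 26.3, 23.8 and 31.7. Every ko/fl library was above every ko/wt library. Behind these values stand 101, 23, 21 and 8 reads in ko/wt and 114, 59, 43 and 58 reads in ko/fl. The mean was 6.91 ± 3.26 in ko/wt and 28.9 ± 4.70 in ko/fl (SD, n = 4 each), a log2 difference of 1.99 ± 0.28 (SE, 95% interval 1.36 to 2.62, limma adjusted p = 0.0103). Without ko/fl input 1 the difference was 1.91 and the limma adjusted p 0.0568. In anti-HA the ko/wt values were 494, 213, 379 and 119 and the ko/fl values 1718, 1793, 1227 and 1014, a log2 difference of 2.41. The anti-HA and input differences of Fcrls were 0.42 ± 0.54 apart (SE, limma adjusted p = 0.453). In IgG the ko/wt values were 23.7, 24.3, 34.7 and 6.40 and the ko/fl values 71.2, 48.9, 29.5 and 32.4, which overlap.

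Hcar2 lies at chr5:123863570-123865499, also on the minus strand and protein-coding. Its ko/wt input values were 9.33, 9.95, 9.08 and 15.7, and its ko/fl input values 4.17, 2.67, 2.76 and 4.92. The groups do not overlap, and ko/wt input 4 was well above the other three ko/wt libraries. These values rest on 83, 53, 26 and 27 reads in ko/wt and 14, 6, 5 and 9 reads in ko/fl. The mean was 11.0 ± 3.14 in ko/wt and 3.63 ± 1.10 in ko/fl (SD, n = 4 each), a log2 difference of -1.37 ± 0.24 (SE, 95% interval -1.91 to -0.84, limma adjusted p = 0.0239). This call was lost when any 1 library other than ko/fl input 4 was left out, while the log2 difference stayed between -1.20 and -1.50. The limma adjusted p was 0.0621, 0.0832, 0.0605 and 0.0527 without ko/wt input 1, 2, 3 and 4, and 0.0645, 0.0685 and 0.110 without ko/fl input 1, 2 and 3. With a pseudocount of 10 the log2 difference was -0.62 (limma adjusted p = 0.0825), and with all 6 groups of the table sharing the spread the same difference had a limma adjusted p of 0.997. In anti-HA Hcar2 had a mean of 348 ± 49.2 in ko/wt and 147 ± 26.5 in ko/fl (SD, n = 4 each), a log2 difference of -1.24. The anti-HA and input differences were 0.13 ± 0.33 apart (SE, limma adjusted p = 0.692). The Hcar2 values in IgG were 3.16, 2.70, 17.3 and 12.8 in ko/wt and 16.6, 8.63, 4.21 and 0 in ko/fl, which overlap.

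**Figure D2:**
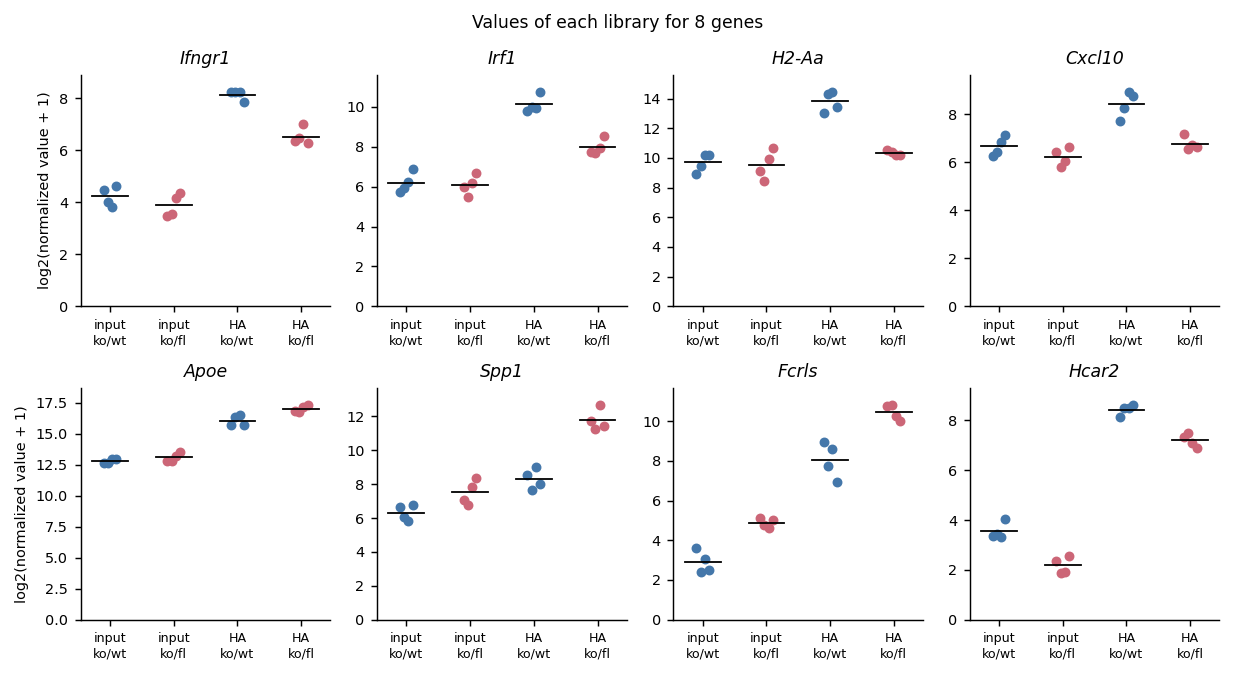
Values of each of the 4 libraries per group (points, log2(normalized value + 1)) in input and anti-HA (HA), with the group mean as a bar, for 8 genes. The input groups stand apart for Fcrls, Hcar2 and Spp1 and overlap for Ifngr1, Irf1, H2-Aa, Cxcl10 and Apoe, while the anti-HA groups stand apart for all 8.

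Besides Fcrls and Hcar2, the input groups did not overlap for 5 more genes, so that 7 of 204 (3.43%) stood apart, 4 higher (1.96%) and 3 lower (1.47%) in ko/fl; in anti-HA 79.9% did and in IgG 2.94%. The higher ones were Fcrls, Spp1, Fam20c and Gbp4, and the lower ones Hcar2, BC051142 and C130026I21Rik. Spp1, which encodes the secreted phosphoprotein osteopontin, had ko/wt input values of 97.8, 66.4, 56.6 and 107.5 and ko/fl values of 133, 107.8, 232 and 333. Its lowest ko/fl value was only just above its highest ko/wt value. The log2 difference was 1.19 ± 0.37 (SE, 95% interval 0.35 to 2.03) and did not pass (limma adjusted p = 0.284). In anti-HA Spp1 rose from 340 ± 144 to 3812 ± 1864 (SD, n = 4 each), a log2 difference of 3.47. Its anti-HA difference exceeded its input difference by 2.28 ± 0.56 (SE, limma adjusted p = 0.00493).

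Fam20c, a secretory pathway kinase, had input values of 112, 109, 116 and 115 in ko/wt and 135, 122, 141 and 141 in ko/fl. The values within each group were close, and the log2 difference was 0.25 ± 0.14 (SE, limma adjusted p = 0.881). Gbp4, a guanylate-binding protein, had input values of 1.24, 1.13, 1.75 and 1.16 in ko/wt and 4.17, 3.12, 2.21 and 2.19 in ko/fl, from 2 to 14 reads a library. That is the opposite of anti-HA, where its mean was 5.43 in ko/wt and all 4 ko/fl libraries were at 0, so no fold is given for anti-HA. The input log2 difference of Gbp4 was 0.74 ± 0.20 (SE, limma adjusted p = 0.260). BC051142 and C130026I21Rik had input means of 3.80 and 1.55 in ko/wt and of 1.98 and 0.572 in ko/fl, with log2 differences of -0.75 and -0.70 (limma adjusted p = 0.284 and 0.201).

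The interferon gamma response list had 25 of its 50 genes in the table, and none was called in input, against 0.98% of all genes. The same 0.98% stands beside each list below, so a short list without a call is near the share over all genes. All 25 were lower in ko/fl anti-HA, with a median log2 difference of -2.22, or -2.19 without Gbp4. In input the median was -0.04, close to the -0.02 of all genes. Negative input values numbered 111 of all 204 genes and 16 of these 25. With quantile scaling the input median of the list was 0.01 and 12 of the 25 were negative, while all 25 stayed negative in anti-HA. At an unadjusted p below 0.05, Gbp4 was higher and Fcgr4 lower in ko/fl input.

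The signalling genes of the pathway had input values that overlapped between the genotypes. Irf1, a transcription factor induced by interferon gamma, had ko/wt input values of 53.0, 60.8, 74.4 and 116 and ko/fl values of 61.3, 43.7, 70.8 and 101. Its input log2 difference was -0.13 ± 0.31 (SE, 95% interval -0.83 to 0.57, limma adjusted p = 0.995), and its anti-HA difference -2.16 (1165 ± 384 to 259 ± 79.5, SD, n = 4 each). The difference between these differences was -2.03 ± 0.44 (SE, limma adjusted p = 0.00231). Stat2, which acts in the type I interferon response, had input means of 56.9 ± 17.4 in ko/wt and 58.3 ± 10.2 in ko/fl (SD, n = 4 each) and anti-HA means of 251 and 117. Socs1, the feedback inhibitor, had input means of 16.2 and 15.4 and anti-HA means of 120 and 20.6. Neither Stat2 nor Socs1 was called in input, with log2 differences of 0.07 ± 0.24 and -0.01 ± 0.28 (SE, limma adjusted p = 0.995 for both).

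The interferon-inducible GTPases act in defence against intracellular pathogens. Igtp, also known as Irgm3, had input values of 149, 185, 272 and 311 in ko/wt and 355, 199, 292 and 359 in ko/fl. Its mean was higher in ko/fl input and lower in ko/fl anti-HA (503 ± 155 to 153 ± 41.3, SD, n = 4 each). The input log2 difference was 0.42 ± 0.29 (SE, limma adjusted p = 0.881) and the anti-HA difference -1.70, and they differed by -2.12 ± 0.44 (SE, limma adjusted p = 0.00155). Irgm1 had input means of 81.4 and 85.3, and Iigp1 10.7 and 11.6, in ko/wt and ko/fl. In anti-HA Iigp1 went from 29.5 to 1.33. Gbp2 had input values of 30.7, 42.6, 56.6 and 58.1 in ko/wt and 39.0, 19.6, 41.5 and 58.4 in ko/fl. The input log2 difference of Gbp2 was -0.29 ± 0.34 and that of Gbp5 -0.64 ± 0.39 (SE; limma adjusted p = 0.995 and 0.881), with anti-HA differences of -3.26 and -2.41. Guanylate-binding proteins and immunity-related GTPases form families of close copies, and how reads shared by copies were counted is not given in the sources used here.

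**Figure D3:**
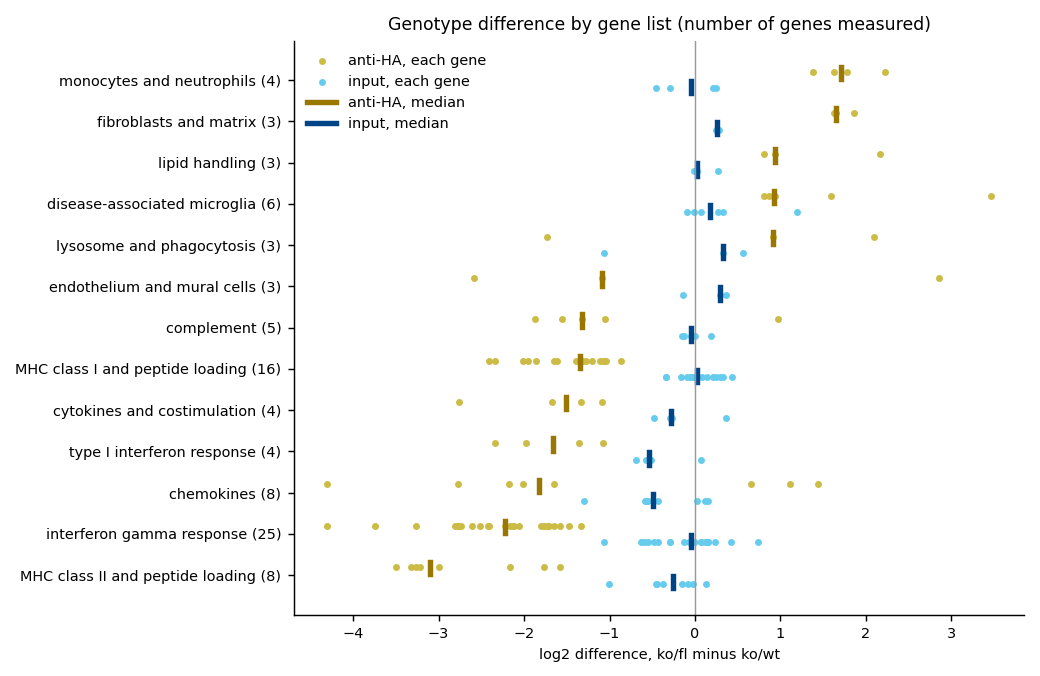
Log2 difference between genotypes (ko/fl minus ko/wt) for each gene (points) and the median (bars) of 13 gene lists with 3 or more measured genes (1 more such list is not shown), in anti-HA (yellow) and input (blue). List medians ran from -3.10 to 1.71 in anti-HA and from -0.54 to 0.33 in input.

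MHC class II genes, which present peptides to CD4+ T cells, had the lowest anti-HA median of the lists, and none was called in input. Their input intervals were wide, and those of H2-Aa and Cd74 (-1.37 to 0.62) include a 2-fold lower value in ko/fl. H2-Aa, the alpha chain of I-A, had ko/wt input values of 486, 717, 1191 and 1154 and ko/fl values of 561, 353, 994 and 1621. The lowest and the highest of these 8 values were both ko/fl libraries. The input means were 887 ± 343 and 882 ± 560 (SD, n = 4 each), a log2 difference of -0.15 ± 0.48 (SE, 95% interval -1.23 to 0.93, limma adjusted p = 0.995). In anti-HA H2-Aa went from 15666 ± 6975 in ko/wt to 1284 ± 140 in ko/fl (SD, n = 4 each), 12.2-fold lower by the means. The anti-HA and input differences of H2-Aa were -3.35 ± 0.61 apart (SE, limma adjusted p = 0.000693).

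H2-Ab1 and H2-Eb1, the beta chains of I-A and I-E, likewise had their lowest input value in ko/fl input 2 and their highest in ko/fl input 4. H2-Ab1 had input means of 450 ± 148 and 496 ± 310, and H2-Eb1 372 ± 137 and 381 ± 221 (SD, n = 4 each). Cd74, the invariant chain, had ko/wt input values of 675, 878, 1416 and 1331 and ko/fl values of 582, 389, 1069 and 1622. Its input log2 difference was -0.38 ± 0.44 (SE, limma adjusted p = 0.995) against -3.27 in anti-HA. Within a genotype, the highest H2-Aa input value was 2.45 times the lowest in ko/wt and 4.59 times in ko/fl. Ciita, the coactivator that controls MHC class II transcription, had input values of 0.337 to 2.91 in ko/wt and 0.891 to 2.73 in ko/fl, and anti-HA means of 24.4 and 2.21. H2-Oa, a chain of the H2-O molecule that modulates peptide loading, had input values of 9.22, 13.1, 17.8 and 9.30 in ko/wt and 4.76, 2.67, 6.08 and 10.4 in ko/fl. Its input log2 difference of -1.01 ± 0.35 was the largest of the list and did not pass (SE, limma adjusted p = 0.355). Over the 8 measured genes of the list the median was -0.26 in input, with 7 values negative and none called, and -3.10 in anti-HA.

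MHC class I and peptide loading genes, which present to CD8+ T cells, had a median input difference of 0.02 over 16 measured genes and -1.35 in anti-HA. None was called in input, beside 0.98% of all genes. Of the 16 input values 7 were negative, or 6 with quantile scaling, beside 111 of all 204 genes, or 98 with quantile scaling. H2-K1 had ko/wt input values of 509, 564, 851 and 980 and ko/fl values of 760, 528, 825 and 1059. H2-D1 had input means of 586 ± 195 in ko/wt and 723 ± 191 in ko/fl (SD, n = 4 each), a log2 difference of 0.33 ± 0.29 (SE, limma adjusted p = 0.991). In anti-HA H2-K1 went from 9234 to 3624 and H2-D1 from 10439 to 3884, with the H2-K1 direction turning under quantile scaling and that of H2-D1 not. Nlrc5, the class I coactivator, had input means of 10.7 and 12.7 and anti-HA means of 61.1 and 11.1. Psme1, an activator subunit of the proteasome, had input values of 367, 267, 333 and 377 in ko/wt and 264, 217, 269 and 308 in ko/fl. The input log2 difference of Psme1 was -0.34 ± 0.18 (SE, 95% interval -0.75 to 0.07, limma adjusted p = 0.881), beside -1.05 in anti-HA. Classical and nonclassical class I genes are near-identical in places, so their split of reads is uncertain.

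In the chemokine list, each of the 8 measured genes had the same sign in input and anti-HA, 5 lower and 3 higher in ko/fl, and none was called in input. The median input difference was -0.50, beside -1.83 in anti-HA. Ccl8, a ligand that attracts monocytes and T cells, had ko/wt input values of 26.1, 21.8, 7.33 and 14.5 and ko/fl values of 7.74, 5.35, 2.76 and 9.29. The overlap came from ko/wt input 3. Its input log2 difference was -1.30 ± 0.42 (SE, 95% interval -2.25 to -0.35, limma adjusted p = 0.284), beside -2.02 in anti-HA. The difference between these differences was -0.71 ± 0.92 (SE, limma adjusted p = 0.453).

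Ccl5, which attracts T cells, had input values of 212, 281, 353 and 322 in ko/wt and 164, 119, 242 and 295 in ko/fl, a log2 difference of -0.57 ± 0.30 (SE, limma adjusted p = 0.881). Cxcl10, a CXCR3 ligand, had input values of 75.0, 85.6, 112 and 141 in ko/wt and 84.0, 55.2, 64.7 and 98.9 in ko/fl. Its input log2 difference was -0.44 ± 0.26 (SE, limma adjusted p = 0.881) against -1.65 in anti-HA. Cxcl9 and Cxcl11, the other two CXCR3 ligands, were low in input, at means of 4.35 and 8.56 in ko/wt and 3.06 and 5.95 in ko/fl. Cxcl14, which was lower in anti-HA than in input in both genotypes, had input means of 308 ± 42.7 and 312 ± 35.8 (SD, n = 4 each).

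The 4 measured genes of the type I interferon response had a median input difference of -0.54, beside -1.66 in anti-HA, and none was called. Zbp1, a sensor of nucleic acids, had input values of 27.2, 27.8, 32.1 and 61.0 in ko/wt and 20.2, 16.0, 24.3 and 36.6 in ko/fl, a log2 difference of -0.57 ± 0.32 (SE, limma adjusted p = 0.881). Among 5 complement genes the median input difference was -0.05, beside -1.33 in anti-HA, with none called. C4b, a component of the classical pathway, had input means of 265 ± 51.3 and 263 ± 38.6 (SD, n = 4 each) and anti-HA means of 2356 and 953. Serping1, the C1 inhibitor, was lower in anti-HA than in input, with input means of 133 and 121 and anti-HA means of 42.0 and 10.1. The 4 genes of cytokines and costimulation had a median input difference of -0.28, beside -1.51, and none was called; Cd40, a costimulatory receptor, had input means of 9.69 ± 3.72 and 6.59 ± 2.41 (SD, n = 4 each).

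Fcgr4, an activating Fc receptor of myeloid cells, had input values of 26.0, 14.1, 16.1 and 33.7 in ko/wt and 11.3, 3.56, 16.0 and 12.0 in ko/fl. Only ko/fl input 3 reached the ko/wt range. The log2 difference was -1.07 ± 0.43 (SE, limma adjusted p = 0.573). Tlr12, an endosomal receptor that senses profilin in mice, had input values of 2.92 to 8.14 in ko/wt and 2.68 to 3.28 in ko/fl, a log2 difference of -0.66 ± 0.26 (SE, limma adjusted p = 0.573). Cacna1s, a calcium channel subunit known from skeletal muscle, differed by -0.68 ± 0.22 (SE, limma adjusted p = 0.284). Rpl39, a ribosomal protein gene with many pseudogene copies, had input means of 2.88 and 1.12 and anti-HA means of 8.42 and 20.4. Its input difference was -0.92 ± 0.28 (SE, limma adjusted p = 0.284), opposite in sign to anti-HA, and it rests on 1 to 26 reads a library.

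**Figure D4:**
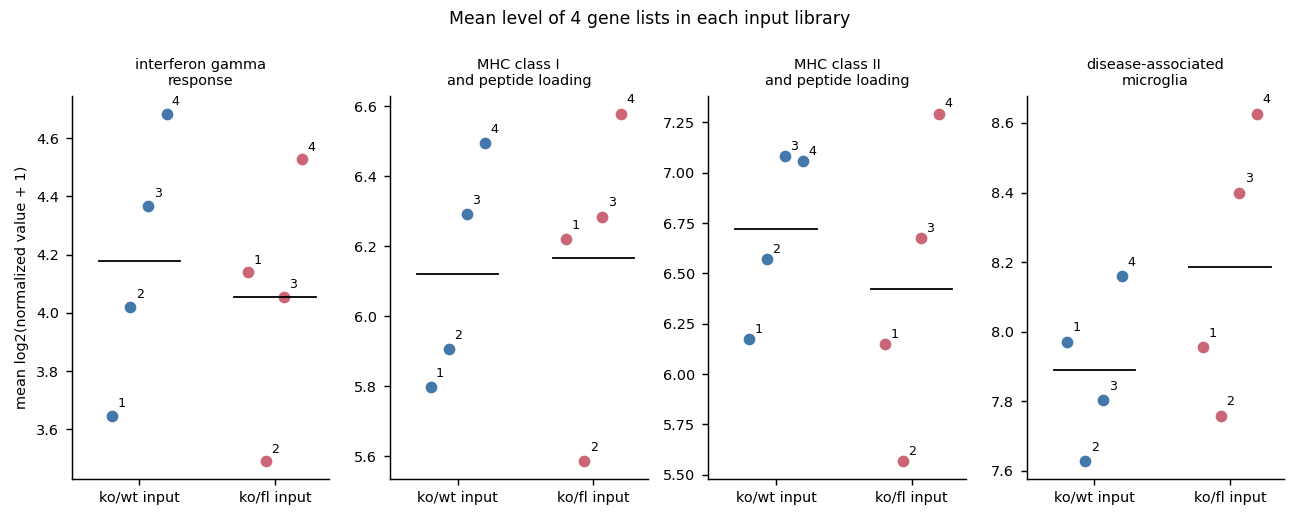
Mean log2(normalized value + 1) over the measured genes of 4 lists in each of the 8 input libraries, numbered by replicate, with the group mean as a bar. In each list the ko/wt and ko/fl libraries overlap, and ko/fl input 4 is above and ko/fl input 2 below the ko/fl mean.

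For the interferon gamma and MHC class II lists, input libraries of 1 genotype differed more from each other than the genotype means did. The mean log2 level of the interferon gamma response list was 3.65, 4.02, 4.37 and 4.69 in the ko/wt inputs and 4.14, 3.49, 4.05 and 4.53 in the ko/fl inputs. The mean MHC class II level was 6.18, 6.57, 7.08 and 7.06 in ko/wt and 6.15, 5.57, 6.68 and 7.29 in ko/fl. The SD within a genotype was 0.45 and 0.43 for the interferon gamma list and 0.43 and 0.74 for the class II list, against differences between the genotype means of -0.13 and -0.30. In anti-HA the same lists differed by -2.36 and -2.73 between genotypes. Over all genes of the table the mean log2 level was 4.75, 4.73, 4.91 and 5.13 in the ko/wt inputs. In the ko/fl inputs it was 4.77, 4.49, 4.91 and 5.17. As in both lists, ko/fl input 2 was the lowest and ko/fl input 4 the highest of the ko/fl inputs. Whether the spread of the lists follows the level of the whole library was not tested. For the other lists with 3 or more measured genes the input groups overlapped as well. The input difference between genotype means exceeded both SDs for endothelium and mural cells (0.17 against 0.07 and 0.12). For chemokines it exceeded in size the ko/wt SD but not the ko/fl SD (-0.39 against 0.21 and 0.45). The same held for disease-associated microglia (0.295 against 0.228 and 0.398) and, barely, for cytokines and costimulation (-0.167 against 0.166 and 0.281).

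Genes of disease-associated microglia, a state known from neurodegeneration and demyelination, had a median input difference of 0.17 over 6 measured genes, beside 0.93 in anti-HA. With quantile scaling the input median was 0. It rests on Apoe and Ctsd, which held the same rank in each input, and such scaling gives equal ranks equal values. None of the 6 was called in input. Apoe, the lipid carrier and the most abundant gene of the table, had input values of 6495, 6537, 8112 and 7974 in ko/wt and 7202, 7029, 9616 and 12072 in ko/fl. Its input log2 difference was 0.27 ± 0.21 (SE, 95% interval -0.21 to 0.75, limma adjusted p = 0.881) and its anti-HA difference 0.94. Under quantile scaling its anti-HA difference was 0 as well, so that setting has no bearing on its direction. Ctsd, a lysosomal protease, had input means of 1648 ± 522 and 2124 ± 882 (SD, n = 4 each) and anti-HA means of 40100 and 77147. Its input difference was likewise 0 under quantile scaling. Cd9, a tetraspanin, had input means of 149 and 156, and Fabp5, a fatty acid-binding protein, 180 in both genotypes. Gp9, listed with Fcrls among 28 homeostatic microglia markers of which 2 were in the table, had input values of 1.46, 0.938, 1.75 and 1.16 in ko/wt and 2.38, 2.67, 1.11 and 3.28 in ko/fl. The Gp9 log2 difference was 0.50 ± 0.24 (SE, limma adjusted p = 0.881).

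Saa3, an acute phase protein of macrophages, had input values of 603, 257, 290 and 448 in ko/wt and 372, 197, 801 and 1053 in ko/fl. The ko/fl libraries hold both the lowest and the highest value, and the log2 difference was 0.40 ± 0.52 (SE, limma adjusted p = 0.995).

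Markers of other cell types bear on what an input measures, and few were in the table. None of the listed markers of T cells, B cells, astrocytes, choroid plexus, erythrocytes or proliferation was measured, so the amounts of these cells in the 8 inputs were not tested. Of 24 monocyte and neutrophil markers 4 were measured. Their median difference was -0.04 in input and 1.71 in anti-HA, and none was called in input. Arg1, an arginine-degrading enzyme of activated macrophages, had input values of 20.3 to 86.0 in ko/wt and 11.6 to 42.0 in ko/fl, against anti-HA means of 32.4 ± 13.9 and 182 ± 160 (SD, n = 4 each). Hp, haptoglobin, had input means of 45.6 and 60.2, and S100a4 85.4 and 68.4, in ko/wt and ko/fl. The mean log2 level of the 4 markers ran from 5.06 to 6.47 in ko/wt inputs and from 4.61 to 6.20 in ko/fl inputs.

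Fn1, fibronectin, had input values of 23.7, 29.3, 28.6 and 79.1 in ko/wt and 35.4, 29.4, 50.3 and 60.6 in ko/fl. The 3 measured fibroblast and matrix genes, Fn1, Ecm1 and Fam20c, had a median input difference of 0.25, beside 1.65 in anti-HA, and none was called. Cspg4, a marker of oligodendrocyte precursors and pericytes, had input values of 12.3 to 24.4 in ko/wt and 17.6 to 25.8 in ko/fl, and anti-HA means of 8.04 ± 4.72 and 75.2 ± 56.2 (SD, n = 4 each). Ly6a, the stem cell antigen Sca-1 found on endothelium, had input means of 75.3 and 70.3 and anti-HA means of 291 and 45.9. Pdyn, a neuronal opioid precursor and the 1 neuronal marker measured, had input values of 62.6, 61.4, 60.8 and 55.8 in ko/wt and 60.1, 65.5, 66.9 and 60.6 in ko/fl, a log2 difference of 0.07 ± 0.14 (SE, 95% interval -0.24 to 0.39, limma adjusted p = 0.995). In anti-HA Pdyn had means of 103 ± 59.4 and 25.3 ± 1.80 (SD, n = 4 each).

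The difference between the anti-HA and the input genotype difference was tested for each gene in 1 fit of all 4 groups. It passed for 146 genes (71.6%), 46 higher (22.5%) and 100 lower (49%) in anti-HA, and in each of the 146 the anti-HA difference was the larger in size. Because the genes were chosen on their anti-HA difference, this count is a description. With quantile scaling 67 were higher and 54 lower. Among the 25 interferon gamma response genes 23 passed, among the 8 MHC class II genes all 8, and among the 16 MHC class I genes 12. For Fcrls, Hcar2, Ccl8, Fcgr4, Tlr12 and Cacna1s the test did not pass, which does not show that the differences were equal; the SE of their input differences was 0.22 to 0.43.

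The level in anti-HA relative to input differed widely between genes. In ko/wt the median gene was 2.14 higher on the log2 scale in anti-HA than in input, with 158 genes higher (77.5%) and 15 lower (7.35%) at a limma adjusted p below 0.05. In ko/fl the median was 1.5, with 134 higher (65.7%) and 21 lower (10.3%). This level depends on scaling anti-HA and input libraries together: with quantile scaling the medians were 0.16 and -0.06, and the splits 70 to 65 and 61 to 64. The order of the genes was used next, with the genes put in 4 bins of 51 by the ko/wt enrichment.

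In the least enriched bin, from -2.57 to 0.84, 26 genes (51.0%) had the same sign in input and anti-HA. The share was 54.9% in the second bin, 72.5% in the third, and 78.4% in the most enriched bin, from 3.16 to 5.71. Counted as positive when it went the anti-HA way, the median input difference was 0.02, 0.04, 0.04 and 0.32 from the least to the most enriched bin. The bins also differed in level and make-up. Their median input mean was 52.3, 28.4, 17.0 and 17.9, and their median input SE 0.19, 0.21, 0.28 and 0.30. Genes lower in ko/fl anti-HA numbered 15, 30, 38 and 43 of 51. The median anti-HA difference regardless of sign was 1.20, 1.23, 1.45 and 1.62 in this order of bins, and ran the other way, 1.81, 1.35, 1.31 and 1.27, in bins by the ko/fl enrichment. Fcrls and Hcar2 were both in the most enriched bin, as were 8 of the 13 genes at an unadjusted p below 0.05. The bins share the ko/wt libraries with both genotype differences, so these shares are a description. Ordered by the ko/fl enrichment instead, the same-sign shares were 49.0%, 52.9%, 64.7% and 90.2%.

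**Figure D5:**
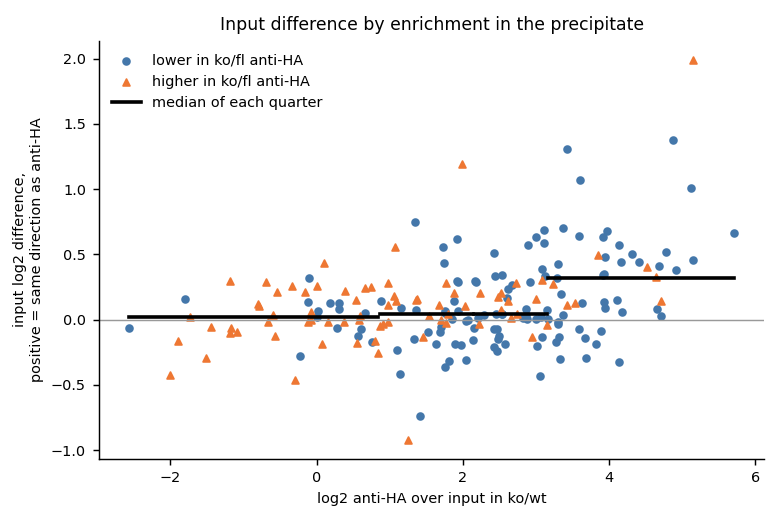
Input log2 difference of each of 204 genes, counted as positive when it had the direction of the anti-HA difference (y axis), against log2 anti-HA over input in ko/wt (x axis), with the median of each bin as a bar. The medians are 0.02, 0.04, 0.04 and 0.32, and Fcrls and Hcar2 lie at the upper right, at 1.99 and 1.37.

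The IgG libraries gave the background of the procedure. None of 204 genes passed in IgG (0%; limma adjusted p), and 9 (4.41%) had an unadjusted p below 0.05. These libraries held 4360 to 17987 reads over the 204 genes, so low genes rest on few reads there. The inputs held 46467 to 202176 and the anti-HA libraries 136064 to 589041 reads. Each value was a whole multiple of its library's step to within 0.01 of a step, and a step, worth 1 read, was 0.112 to 0.581 in the inputs. Apoe took 27.0% to 34.0% of the summed input values. Correlations of log2 values between input libraries were 0.950 to 0.987 within a genotype and 0.940 to 0.981 between genotypes, with medians of 0.976 and 0.968.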

How the data were processed

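Libraries of polyadenylated RNA from input, IgG and anti-HA were read in 1 table of 204 genes and 24 libraries. Its values are a normalized signal: the deposited values are whole reads divided by a factor per library, which the labels' protocols do not describe; the build is mm10, per the submitters' processing notes. Of the log2 fold changes and p-values (FDR) in the authors' deposited table, only the FDR that chose the genes is printed; each fold change and p-value in the text was computed here from the normalized values. The sources used here name no counting tool.

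Groups came from the genotype and antibody labels. Values became log2(value + 1), with no filter, and were compared with limma 3.58.1 in R 4.3.3 (eBayes, two-sided, Benjamini-Hochberg over 204 genes, threshold 0.05, 95% intervals), tested on simulated data. Inputs, anti-HA and IgG were fitted separately, and the difference of differences in 4 groups. Depth is given as reads over the 204 genes, not per library, and intervals do not cover the choice of scaling. Alternatives were other pseudocounts (0.1 and 10), a mean of at least 10, quantile scaling, trended priors, library weights, a spread shared by 6 groups, a replicate block and leaving out each library.

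Genes were named by a rule: called genes, the 8 lowest p-values per direction in input, the 10 largest anti-HA and 6 largest difference-of-difference values per direction, the 4 most abundant of each list, the 6 most abundant of all, and known pathway genes. C130026I21Rik, whose input groups did not overlap, and Pdyn were also named after their values were seen. Aida, Psmb9 and Tap1 are named outside the rule as well. The members and lists were chosen with earlier results of these data known. Some items are not reported here. GRCm38 annotation gave coordinates for 202 genes; promoters are RefSeq's.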

Additional observations from a re-analysis of the deposited data

Results flagged for a closer look

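Within the 4 libraries of a group, a single value stood far from the others for 5 of 148 gene and group pairs tested. The cut flags 1 in 20 independent pairs by chance, but these pairs share the same libraries, so the rate is no yardstick. Most flagged values came from 1 library, ko/wt input 4: Ecm1 (54.6, lowest 18.9), Fn1 (79.1, lowest 23.7), Hcar2 (15.7, lowest 9.08) and Zbp1 (61.0, lowest 27.2). The other was ko/wt input 1 for Efna3 (5.74, lowest 3.49). Without ko/wt input 4, Hcar2 had a log2 difference of -1.20 (limma adjusted p = 0.0527).

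The test of the anti-HA genotype difference against that of input passed for 46 genes in the higher and 100 genes in the lower direction, or for 67 and 54 with quantile scaling. The genes were chosen for their anti-HA difference, so these counts and the values below are a description. Among the genes whose input groups did not overlap, the anti-HA difference minus the input difference was 2.28 for Spp1 (limma adjusted p = 0.00493), 1.39 for Fam20c (limma adjusted p = 0.00576), -2.04 for BC051142 (limma adjusted p = 0.00722), -1.69 for C130026I21Rik (limma adjusted p = 0.000947) and -3.35 for Gbp4 (limma adjusted p = 5.07e-06). The Gbp4 value depends on the pseudocount, since its ko/fl anti-HA libraries were all at 0, and it is no bound.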

How the results depend on the processing

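The input count of 2 called genes was 1 with a pseudocount of 10, 1 of 146 genes with a mean of at least 10, which leaves out Hcar2, and 1 with all 6 groups sharing the spread; in each case the gene was Fcrls. It was 0 to 2 when 1 input library was left out, 0 without ko/fl input 1 and 2 without ko/fl input 4. It stayed at 2 with a pseudocount of 0.1, quantile scaling, trended priors and library weights. The anti-HA count was 156 with quantile scaling and otherwise 167 to 204; the difference-of-differences count was 100 to 181; the IgG count was 0 in each. Over the input differences of the named genes, 1131 gene and setting pairs kept their call or, if uncalled, moved by less than their standard error. Another 21 uncalled values moved by more than that, 10 lost a call, and no called input difference turned direction. In anti-HA, Aida and H2-K1 turned direction with quantile scaling, and the Apoe difference became 0.

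Same-numbered inputs of the genotypes deviated from their group means with correlations of -0.09 to 0.43, 2 of 4 over 0.1, and 4 of 8 libraries correlated best with their own number, so the numbers were not taken to pair them. With the replicate block the input count was 2, anti-HA 204, IgG 0, the difference of differences 156, and anti-HA against input 175 in ko/wt and 157 in ko/fl. Inputs and anti-HA libraries of 1 number had correlations of 0.08 to 0.36 in ko/wt and 0.03 to 0.26 in ko/fl, 3 of 4 over 0.1 in each, and 6 and 5 of 8 libraries correlated best with their own number, a hint from the data and not from the labels.

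Count models on reads were not run. Most columns hold fewer than the 100 low values that the planned check of whole reads asked for, although each value was a whole multiple of its library's step. The ordering by ko/fl enrichment was added after the data were seen and gave 90.2% against 78.4%. Some values rest on few reads, such as 5 to 14 for Hcar2 in the ko/fl inputs.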
